A study of Mus musculus with 4 samples.

Results

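Complement components and receptors were followed in recruited alveolar macrophages, cells that arise from blood monocytes and move into the airspaces when the lung is injured. The group was chosen by symbol: C1qa, C1qb, C1qc, C3, Cfb, Cfp, C3ar1 and C5ar1, 8 of the 16360 genes in the count table, all of them found there and all of them past the filter on low counts. Cells came from male mice with both copies of Sod3, the gene of extracellular superoxide dismutase (EC-SOD), carrying R213G, and from WT male mice, with 2 libraries per genotype and 4 in all. Every mouse was 8 to 10 weeks old, carried the strain label CD57/Bl6 and had been given bleomycin through the trachea, 100 µl of a 1 U/ml solution, a DNA-damaging drug that leads to lung injury and scarring. Sorting after 7 days took cells high for CD11b and CD64 and low for Siglec-F, and polyA RNA was sequenced. Both genotypes had therefore been given bleomycin, and no uninjured group is part of the comparison. The labels do not say whether a library is 1 mouse or a pool, or whether the genotypes were littermates, so the p-values cover just the variation among these 4 libraries, which may be technical.

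Complement is a cascade of plasma proteins that tags particles for uptake, draws in leukocytes and can lyse membranes. C1q, assembled from A, B and C chains, opens the classical pathway and also binds dying cells. C3 is the point where the pathways meet: its cleavage gives the opsonin C3b and the anaphylatoxin C3a. Factor B (Cfb) and properdin (Cfp) drive and hold together the alternative pathway convertase. C3ar1 and C5ar1 are G protein-coupled receptors for C3a and C5a. Most plasma complement is made by the liver, but tissue macrophages are a main source of C1q.

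The libraries held 33488569 and 35176210 counts in R213G, against 33573116 and 34111951 for WT. R213G replicate 1 stood apart, with 13584 genes at 1 or more counts against 14598 to 15194 in the other 3 libraries, and with 1689 CPM of the non-coding Gm42418 against 513 to 702 elsewhere (CPM, counts per 1000000, uses filtered library sizes with TMM scaling). RNA of the gate genes was at similar levels in all libraries. Fcgr1, which encodes CD64, had 250 and 251 CPM in R213G and 261 and 243 in WT. Itgam, which encodes CD11b, had 721 to 886 CPM over the 4, and Siglecf 10.8 to 12.1 CPM. Sorting was by surface protein, and no cells outside the gate are among these libraries, so the RNA levels do not check the gate. Sod3 itself was counted 4 and 47 times in R213G, against 47 and 96 times in WT, and since the variant is a coding change this level does not check the labels. Marker sums, and from here on single genes of the marker lists, are in CPM without TMM scaling. Summed macrophage markers were 25299 and 29275 CPM in R213G and 31191 and 27768 in WT (10 of 10 markers in the table), and eosinophil markers were represented by Alox15 alone, at 0 in all libraries.

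None of the 8 genes passed the test between genotypes (edgeR quasi-likelihood, adjusted p = 0.9996 for each), and neither did any other gene: 0 of 13575 tested genes, 0% in either direction. Without adjustment 302 genes (2.22%) had a p under 0.05, 1.29% lower and 0.936% higher in R213G, and DESeq2 called 1 gene, which was not a member. C3 was the single member at an unadjusted p under 0.05 and the single member whose R213G and WT libraries did not overlap, being lower in R213G. Of all tested genes 28.9% did not overlap, 15.2% on the lower side, so 1 of 8 without overlap is near the background. The median log2 fold change (R213G minus WT) was -0.03 over the 8 members and -0.01 over all tested genes. The median size of the log2 fold change, regardless of sign, was 0.03 for the members, 0.17 for all tested genes and 0.11 for the 7576 genes at a mean of at least 15 CPM, which all members exceed.

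**Figure D1:**
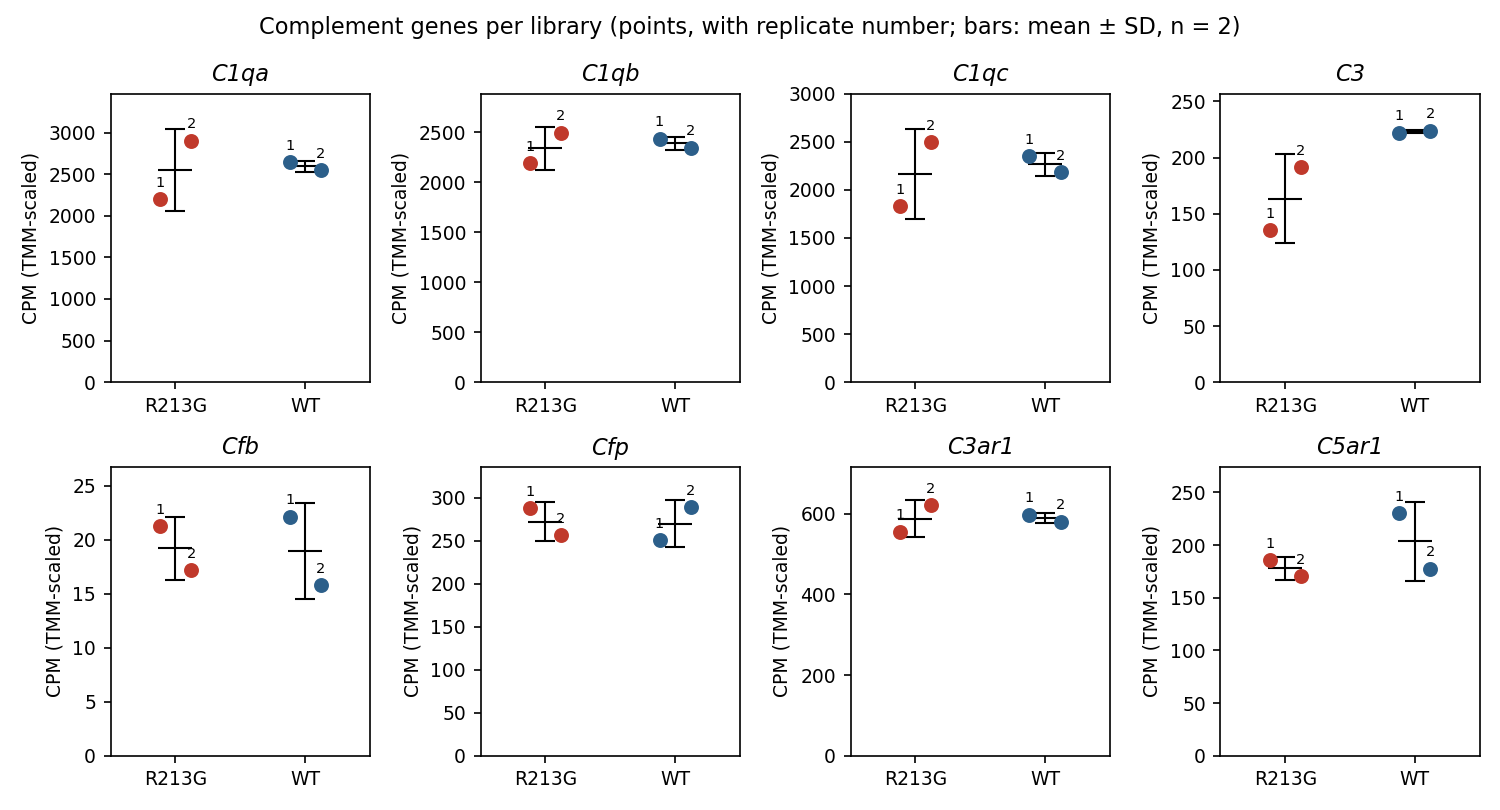
Expression of the 8 complement genes in CPM (TMM-scaled, linear axis from 0), 1 panel a gene, with R213G in red, WT in blue, replicate numbers beside the points and bars for the mean ± SD (n = 2). Only in the C3 panel do the genotypes not overlap (135 and 192 CPM in R213G, 222 and 224 in WT), and the C1q panels show a wide R213G pair around a narrow WT pair.

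The C1q chains were among the most abundant transcripts of the cells and were close in both genotypes. C1qa, the A chain (ENSMUSG00000036887, chromosome 4 from 136895917 to 136898803, GRCm38, minus strand, 3 exon blocks), had 2200 and 2903 CPM in the R213G libraries and 2642 and 2547 CPM in the WT libraries. C1qb, the B chain (ENSMUSG00000036905, 136880129 to 136886187), had 2188 and 2492 CPM in R213G and 2432 and 2342 in WT. C1qc, the C chain (ENSMUSG00000036896, 136889804 to 136893065), had 1832 and 2496 CPM in R213G and 2351 and 2181 in WT. For each chain R213G replicate 1 was the lowest and R213G replicate 2 the highest library, and both WT libraries lay between them.

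The log2 fold changes were -0.02 ± 0.14 (SE) for C1qa, -0.03 ± 0.12 for C1qb and -0.07 ± 0.15 for C1qc. The 95% intervals of the edgeR fit ran from -0.34 to 0.29, from -0.29 to 0.23 and from -0.40 to 0.27. On the linear scale they allow 0.788 to 1.23 times the WT level for C1qa, so a change of either sign within that range is not excluded. Leaving out R213G replicate 1 gave log2 fold changes for the 3 chains of 0.16, 0.06 and 0.14, opposite in sign to those over all libraries, and without R213G replicate 2 they were -0.24, -0.13 and -0.31. The counts themselves were large, 62545 to 101010 per chain and library, and counting alone gives a relative SD of at most 0.4%. The gap between the R213G libraries was 0.40 on the log2 scale for C1qa, 0.19 for C1qb and 0.45 for C1qc, against a median gap of 0.20 for genes at a mean of at least 15 CPM. In WT the sizes of these gaps were 0.05, 0.05 and 0.11, under the corresponding median of 0.15.

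Corrected for transcript length, the chains were also among the top genes. Levels in TPM (transcript abundance scaled to 1000000 per library, from CPM divided by the longest protein-coding transcript in GENCODE) were 6062 ± 1167 in R213G and 6177 ± 13 in WT for C1qa, 5315 ± 476 in R213G and 5431 ± 16 in WT for C1qb, and 4445 ± 954 in R213G and 4662 ± 136 in WT for C1qc (SD, n = 2 each). By mean TPM they ranked 15, 18 and 20 of 13259 genes with a length. The neighbouring levels C1qa and C1qb did not differ beyond their spread in R213G, whereas in WT each chain stood apart from the next by more than the SDs. Within each of the 4 libraries the order was C1qa, C1qb, C1qc.

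The 3 chains took similar parts of the C1q message in each library. C1qa made up 35.4% and 36.8% of the summed C1q counts in R213G and 35.6% and 36.0% in WT. C1qb made up 35.2% and 31.6% in R213G and 32.8% and 33.1% in WT, and C1qc 29.5% and 31.6% in R213G, against 31.7% and 30.8% for WT. The widest exact binomial 95% interval belongs to R213G replicate 1, for which C1qa ranges over 35.2% to 35.6%. Each chain had a share that differed from all other libraries beyond counting error. Among these were C1qb and C1qc in R213G replicate 1 and C1qa in R213G replicate 2. The genotypes overlapped for every chain. Together the chains took 0.634% and 0.781% of all counts in R213G and 0.731% and 0.711% in WT, or 84.0% and 86.3% of the counts of the 8 members in R213G and 84.9% and 84.6% in WT. Intervals cover counting error only. In bulk RNA, fewer cells of a type and less RNA per cell cannot be told apart.

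The C1q genes form 1 cluster on mouse chromosome 4, in the order C1qb, C1qc, C1qa, which spans 18675 bases with gaps of 3616 and 2851 bases between genes. The sequences upstream of C1qb and C1qc are shown because these genes share the locus and have the same lowest and highest library. They come from RefSeq on GRCm38.p6, minus strand, at chr4:136886201-136886450 for C1qb and chr4:136893066-136893164 for C1qc, and each ends before both the RefSeq start site and the GENCODE gene span, which for C1qc begins farther upstream. Capitals mark the motifs found, GAGGAA (the core bound by the macrophage factor PU.1) or its reverse complement, and TGCTGA (the half-site of MAF factors).
C1qb: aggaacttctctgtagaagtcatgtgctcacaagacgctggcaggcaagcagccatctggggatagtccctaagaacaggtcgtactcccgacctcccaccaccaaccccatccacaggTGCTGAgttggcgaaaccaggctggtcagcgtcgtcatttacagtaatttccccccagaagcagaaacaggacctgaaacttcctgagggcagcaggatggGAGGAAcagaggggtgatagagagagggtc
C1qc: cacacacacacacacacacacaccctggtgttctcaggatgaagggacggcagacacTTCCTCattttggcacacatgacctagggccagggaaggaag

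In C1qb the GAGGAA match lay 30 to 25 bases before the RefSeq start and the TGCTGA match 131 to 126 bases before it. In C1qc the GAGGAA match lay on the opposite strand, 193 to 188 bases before the start. Promoter windows of 250 bases before to 50 bases after the start were at hand for 6 of the 8 members (C1qb, C1qc, C3, C3ar1, C5ar1 and Cfp). On either strand GAGGAA occurred in 3 of these 6, C1qb, C1qc and Cfp, and in 28.3% of all 32851 windows. The matches in Cfp lay after the start, at bases 7 to 12 and 23 to 28. Within the 250 bases before the start alone, GAGGAA occurred in 2 of the 6 and in 23.3% of all windows. TGCTGA occurred in 4 of 6, C1qb, C3, C3ar1 and C5ar1, and in 19.5% of all windows. The letters TTGCNNAA, a core of C/EBP sites, occurred in C3 alone among the 6 and in 10.8% of all windows. The other motifs searched had 0 matches in the 6: the interferon response element core (3.44% of all windows), the ETS-IRF composite site (2.72%) and the kappa B site (1.47%). No 2 of these matches overlapped in the sequences shown, and a match is a run of letters, not a shown binding site.

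C3, the central component (ENSMUSG00000024164, chromosome 17 from 57203970 to 57228136, minus strand, 42 exon blocks), was the member with the lowest fold change. It had 4618 and 6665 counts in R213G, against 7333 and 7686 for WT, or 135 and 192 CPM in R213G and 222 and 224 CPM in WT. Both R213G libraries were below both WT libraries, and R213G replicate 1 was the lowest by a wide margin. Its mean was 163 ± 39.8 CPM in R213G and 223 ± 1.45 CPM in WT, a log2 fold change of -0.45 ± 0.16 with an interval from -0.81 to -0.09, or 0.733 of the WT level. This did not pass over all genes (edgeR, unadjusted p = 0.0199, adjusted p = 0.9996), and the adjusted p ranged from 0.242 to 0.99996 over the alternatives. The gap between its R213G libraries was 0.50 on the log2 scale, larger than for 87.4% of genes at a mean of at least 15 CPM, and that between its WT libraries 0.01, larger than for 5.35% of them. The value rests in part on R213G replicate 1, the library that stood apart: it was -0.22 (edgeR, unadjusted p = 0.106) without that library and -0.72 (unadjusted p = 0.000189) without R213G replicate 2. The part of that library's lower gene count and higher Gm42418 in the C3 value was not tested.

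Set against C1q, a ratio free of library scaling and chosen after the values were seen, C3 counts were 2.17% and 2.43% of the summed C1q counts in R213G, against 2.99% and 3.17% for WT. The libraries did not overlap for this ratio, and neither did they for 13.2% of all tested genes on the same side and 9.69% on the other. The difference was -0.778 percentage points, and -0.904 to -0.651 with 1 library left out. Its sign in those settings was fixed in advance, because the libraries did not overlap. Per transcript length, C3 stood at 78.6 ± 19.0 TPM in R213G and 108 ± 3.25 TPM in WT, at rank 1741 of 13259 and at 1.4% and 1.56% of the mean C1q chain level in R213G and 1.93% and 2.04% in WT.

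The bases before the C3 start, from RefSeq on GRCm38.p6 at chr17:57228137-57228386 (minus strand), are shown because C3 was the member with the largest difference and the single one with a C/EBP-type match. Capitals mark the reverse complement of TGCTGA, 182 to 177 bases before the start, and TTGCNNAA, 45 to 38 bases before it.
C3: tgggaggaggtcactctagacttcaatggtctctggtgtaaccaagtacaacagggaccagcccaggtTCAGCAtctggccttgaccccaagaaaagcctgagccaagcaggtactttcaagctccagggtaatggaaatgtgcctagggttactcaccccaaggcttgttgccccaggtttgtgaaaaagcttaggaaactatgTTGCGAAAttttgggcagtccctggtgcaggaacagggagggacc

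**Figure D2:**
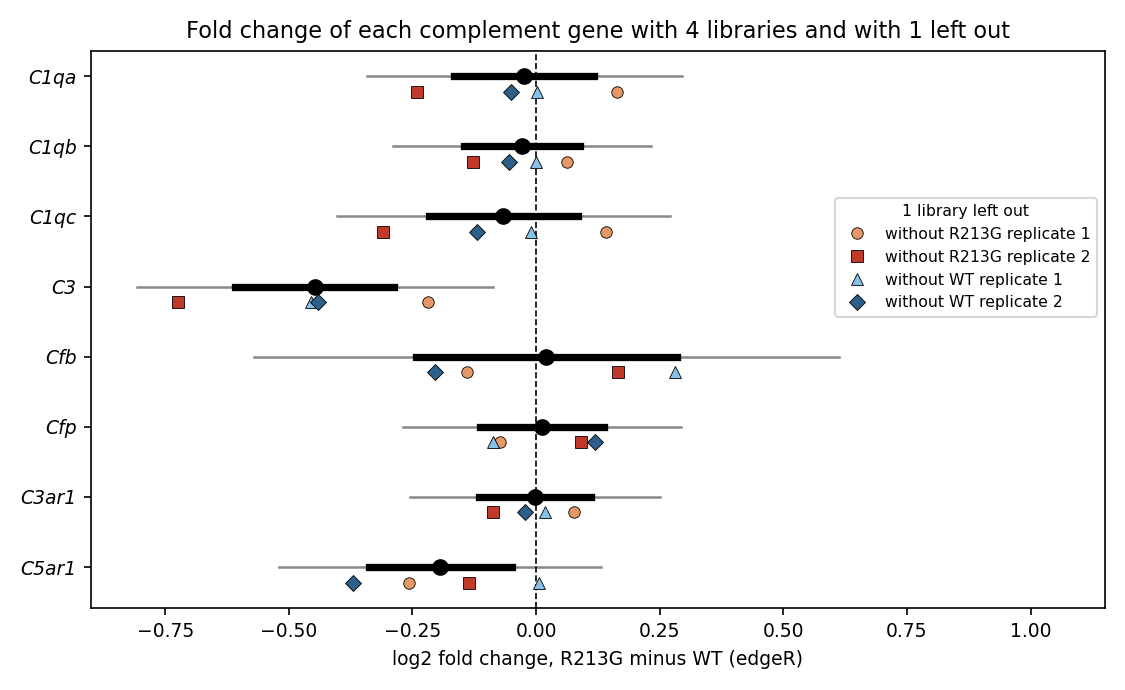
Log2 fold change (R213G minus WT) of the 8 genes over 4 libraries, as black points with thick bars for the SE and thin bars for the 95% interval, and with 1 library left out, as coloured marks under each point. C3 stays below 0 in all 4 marks (-0.72 to -0.22), while each of the other 7 genes has marks on both sides of 0. The constant sign of C3 follows from its genotypes not overlapping.

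The alternative pathway members differed between genotypes by less than the spread between libraries. Cfb, the protease subunit of the convertase (ENSMUSG00000090231, chromosome 17 from 34856374 to 34862518, minus strand, 17 exon blocks), was the lowest member in CPM and in TPM, with 726 and 597 counts in R213G, against 731 and 542 for WT. These are 21.3 and 17.2 CPM in R213G and 22.1 and 15.8 CPM in WT, so replicate 1 was the higher library in each genotype and the genotypes overlapped. Its log2 fold change was 0.02 ± 0.26, with an interval from -0.57 to 0.61, the widest of the 8. It was -0.20 without WT replicate 2 and 0.28 without WT replicate 1. The annotated gene Gm20547 lies on the same strand and shares 2246 exon bases, 79.5% of the Cfb exons, and the sources used here do not say how reads in shared exons were counted, so the level of Cfb is uncertain. Mir6972 within Cfb and Mir6978 within C3 share 0 exon bases with them.

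Cfp, properdin (ENSMUSG00000001128, chromosome X from 20925454 to 20931555, minus strand, 9 exon blocks), had 288 and 256 CPM in R213G and 250 and 289 CPM in WT. The pairs were nearly the same, and the log2 fold change was 0.01 ± 0.13 with an interval from -0.27 to 0.29. In TPM, Cfp stood at 411 ± 34.9 in R213G and 409 ± 50.9 in WT, above C3 in all 4 libraries, whereas Cfb stood at 17.3 ± 2.65 in R213G and 17.0 ± 3.62 in WT. The ratio of C3 to Cfb counts came to 6.36 and 11.2 in R213G, against 10.0 and 14.2 for WT. These pairs overlapped.

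The anaphylatoxin receptors were expressed in all libraries. C3ar1 (ENSMUSG00000040552, chromosome 6 from 122847138 to 122856161, minus strand, 2 exon blocks) had 555 and 621 CPM in R213G and 597 and 581 CPM in WT. Its order over the libraries was that of the C1q chains, with R213G replicate 1 lowest and R213G replicate 2 highest. The log2 fold change was -0.002 ± 0.11, with an interval from -0.25 to 0.25, or 0.838 to 1.19 times the WT level. C5ar1 (ENSMUSG00000049130, chromosome 7 from 16246743 to 16259540, minus strand, 3 exon blocks) had 186 and 170 CPM in R213G and 230 and 177 CPM in WT. WT replicate 1 was the high library and the other 3 lay close together, so the genotypes overlapped. Its log2 fold change of -0.19 ± 0.15 (edgeR, unadjusted p = 0.213) was 0.01 without WT replicate 1 and -0.37 without WT replicate 2.

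In TPM, C3ar1 stood at 338 ± 25.9 in R213G and 339 ± 1.19 in WT, and C5ar1 at 173 ± 11 in R213G and 198 ± 31.7 in WT. The ratio of C3ar1 to C5ar1 counts came to 2.99 and 3.65 in R213G, against 2.60 and 3.28 for WT, with overlap between genotypes. Per length the order of the 8 levels was C1qa, C1qb, C1qc, Cfp, C3ar1, C5ar1, C3 and Cfb in both genotypes and in each library. Neighbours in it differed beyond their spread except C1qa and C1qb and C1qb and C1qc in R213G. C5ar2, the other C5a receptor, had 31.2 and 35.5 CPM in R213G and 38.5 and 31.8 CPM in WT.

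**Figure D3:**
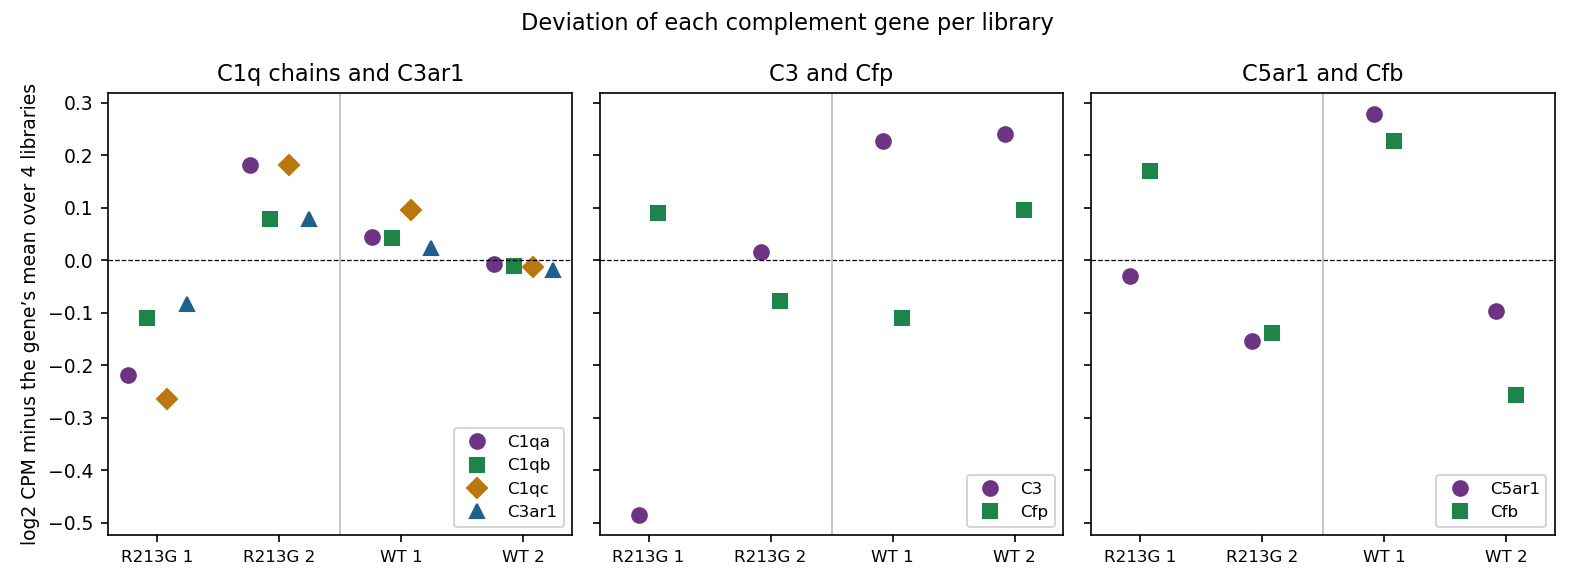
Deviation of log2 CPM from each gene's own mean over the 4 libraries, for the C1q chains and C3ar1, for C3 and Cfp, and for C5ar1 and Cfb. The first set is lowest in R213G replicate 1 and highest in R213G replicate 2, C3 reaches -0.49 in R213G replicate 1, and Cfb is above 0 in replicate 1 and below 0 in replicate 2 of each genotype.

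Except for C3, the profiles of the members were not divided by genotype. The likeness of 2 genes was measured as the root mean square distance between their log2 CPM profiles over the 4 libraries, each centred on its own mean. C1qb and C3ar1 were nearest at 0.02, followed by C1qa and C1qc at 0.03 and C1qa and C1qb at 0.08. C1qb and C1qc were the farthest pair of C1q chains at 0.10. C3 and Cfb were farthest apart at 0.42. Of the 4052 other genes at a mean of at least 50 CPM, the nearest to the mean C1q profile were Rlim, a ubiquitin ligase, at a distance of 0.005, and Atp6v1a, a subunit of the vacuolar proton pump, at 0.009. Next came the mechanosensitive channel gene Piezo1 and the NRF2 inhibitor gene Keap1, each at 0.01, and the hexokinase gene Hk3 at 0.01. The median distance over these genes was 0.15. Atp6v1a, for example, had 307 and 387 CPM in R213G and 367 and 353 in WT. For C3 the nearest were Usf3 at 0.04, the Argonaute gene Ago3 at 0.06 and the histone methyltransferase gene Kmt2a at 0.06, against a median of 0.30. Kmt2a had 57.4 and 90.1 CPM in R213G and 101 and 106 in WT. With 4 libraries such a likeness is a description only.

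Cfb and C5ar1 were higher in replicate 1 than in replicate 2 of each genotype, as were summed markers of some other cell types. The log2 gap (replicate 2 minus replicate 1) was -0.31 for Cfb and -0.12 for C5ar1 in R213G, and -0.48 and -0.38 in WT. In R213G the C5ar1 gap was larger in size than for only 32.7% of genes at a mean of at least 15 CPM. The share of all tested genes higher in replicate 1 of both genotypes was not counted. Dendritic cell markers (10 of 10 in the table, 10 tested, 0 called) summed to 276 and 83.1 CPM in R213G and 249 and 78.6 CPM in WT. The highest by mean, the chemokine receptor gene Ccr7, had 45.0 and 22.5 CPM in R213G and 78.7 and 16.4 in WT, while the defining marker Xcr1 had 0 and 17 counts in R213G, against 0 and 15 for WT, and Clec9a 0 and 20 in R213G and 36 and 8 in WT. Alveolar epithelial markers (9 of 10 in the table), a cell type that also makes complement, summed to 548 and 268 CPM in R213G and 395 and 286 in WT. Napsa led the sum, with 245 and 123 CPM in R213G and 182 and 132 in WT. The surfactant gene Sftpc was at 0 and 8 counts in R213G, against 0 and 6 for WT, and Sftpb at 14 and 76, against 22 and 33. Napsa, Cdh1 and Epcam were higher in replicate 1 of each genotype, whereas Sftpc, Sftpb, Sftpa1 and Ager, all at low counts, were higher in replicate 2. The fibroblast list was represented by 3 of 10 genes, at 69.2 and 146 CPM in R213G and 59.1 and 115 in WT, and led by Cspg4. B and plasma cell markers (3 of 8) summed to 24.4 and 8.02 CPM in R213G, against 18.2 and 6.63 for WT, and Kit, the 1 mast cell marker of 6 in the table, stood at 40.4 and 12.1 CPM in R213G, against 34.4 and 12.5 for WT. Apart from the fibroblast list, which was lower in replicate 1, these sums were higher in replicate 1 of each genotype. The part of these cells in the values of Cfb and C5ar1 was not tested.

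**Figure D4:**
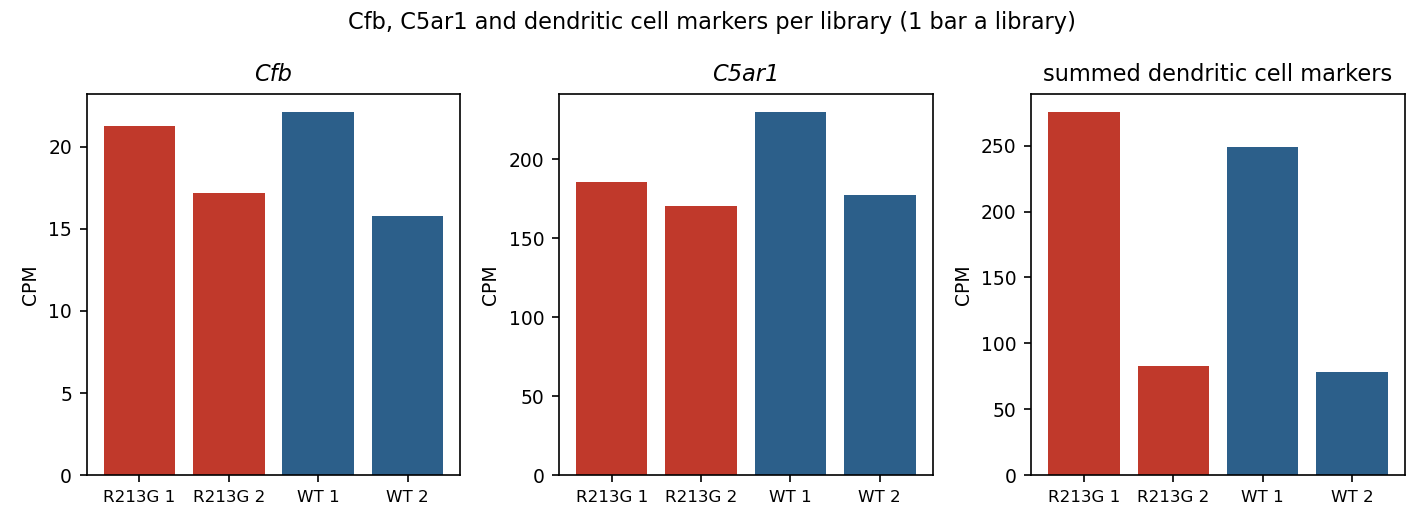
CPM of Cfb, of C5ar1 and of 10 summed dendritic cell markers in each library (1 bar a library, R213G red, WT blue, axes from 0). The marker sum is without TMM scaling. The dendritic sum is 276 and 249 CPM in the replicate 1 libraries and 83.1 and 78.6 in the replicate 2 libraries. Cfb and C5ar1 are also higher in replicate 1 of each genotype, but by less, with C5ar1 at 186 and 170 CPM in R213G.

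C1q is also made by interstitial macrophages, whose marker list was read beside it. It summed to 13475 and 13668 CPM in R213G and 18310 and 13010 in WT (12 of 12 in the table, 11 tested, 0 called), led by Apoe with 10586 and 10026 CPM in R213G and 14704 and 9466 in WT. Without Apoe the sum was 2889 and 3642 CPM in R213G, against 3606 and 3544 for WT, lowest in R213G replicate 1 and highest in R213G replicate 2 as each C1q chain was. Of the 12 genes, 9 were lowest in R213G replicate 1. At the high end the list departed from C1q, with 4 genes highest in R213G replicate 2, 6 in WT replicate 1 and 2 in WT replicate 2. Stab1 and Trem2 were among both the 9 and the 4. Stab1, a scavenger receptor gene, had 611 and 1008 CPM in R213G, against 925 and 955 for WT. Trem2, a lipid-sensing receptor gene, had 441 and 550 CPM in R213G, against 547 and 506 for WT. These 2 are named after their values were seen, and the part of interstitial macrophages in the C1q values was not tested. The order was not particular to this list. Adgre1 of the macrophage list, for example, had 424 and 548 CPM in R213G and 507 and 487 in WT. Of that list's 10 genes, 5 were lowest in R213G replicate 1, with 2 highest in R213G replicate 2 and 6 in WT replicate 1. Of 14 resident alveolar macrophage genes, 5 were lowest in R213G replicate 1 and 7 highest in R213G replicate 2. The share over all tested genes was not counted. Resident alveolar macrophage markers summed to 2854 and 2985 CPM in R213G and 2461 and 3171 in WT (14 of 14), and monocyte markers to 989 and 753 CPM in R213G and 894 and 958 in WT (9 of 10). Neutrophil markers (6 of 12) summed to 139 and 158 CPM in R213G and 184 and 181 in WT, below those of WT in both R213G libraries as C3 was. The sum was led by Mmp8, with 72.1 and 89.1 CPM in R213G and 99.5 and 98.3 in WT, followed by Csf3r. The markers did not move as 1: S100a8 had 20.1 and 12.1 CPM in R213G and 10.9 and 13.3 in WT. Of the 5 tested, 2 had a positive fold change. S100a9 was counted in R213G replicate 1 alone, 31 times, and neither Cxcr2 nor Ltf exceeded 37 counts in any library. A split with R213G wholly below WT was not particular to neutrophil genes, since 15.2% of all tested genes had it. Of 9 tested monocyte genes, 4 did not overlap: F13a1, Hp and Plac8 were lower in R213G, and Treml4 was higher. These monocyte genes are named after their values were seen. The part of neutrophils or monocytes in the C3 value was not tested. Summed markers of the remaining cell types ranged over the 4 libraries from 74.5 to 109 CPM for T and NK cells, from 90.0 to 118 for airway epithelium and from 102 to 142 for endothelium.

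Beyond the 8, 55 complement genes were listed by role, of which 27 were in the table and 23 were tested; the others were not analysed here. None passed (edgeR, 0 of 23, and 0 at an unadjusted p under 0.05), with 8 positive and 15 negative log2 fold changes and a median of -0.07 against -0.01 for all tested genes. R213G was without overlap lower in 3 of 23, C1s1, C4b and Fcnb, beside 15.2% of all tested genes, and higher in 0 of 23, beside 13.7%. With C1s1 and Fcnb set to the ratios to a floor given below, the median was -0.07 too, which was fixed in advance because both genes stay below the median.

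The proteases that C1q activates stood far below it per transcript length, with C1ra at a mean of 30.7 TPM and C1s1 at 0.20 TPM over the 4 libraries. C1ra, the C1r protease, had 40.5 and 35.1 CPM in R213G and 33 and 39.5 CPM in WT (a log2 fold change of 0.06 ± 0.19). C1s1, the C1s protease, had 0 counts in both R213G libraries and 12 and 20 in WT. Its WT mean was 5.43 times a floor of 3 counts per library. Fcnb, a ficolin of the lectin pathway, had 0 in both R213G libraries and 11 and 14 in WT, a mean 4.26 times that floor. Fcnb is named after its values were seen. These ratios leave out the spread between libraries and are not lower limits of a change. Both genes are near the limit of detection and did not pass (edgeR, unadjusted p = 0.055 for C1s1 and 0.070 for Fcnb). C4b, which forms the classical convertase with C2, had 9.08 and 6.24 CPM in R213G and 14.6 and 10.2 CPM in WT (a log2 fold change of -0.69 ± 0.36), and has a near-identical paralog, C4a, with which reads could be split. Fcna, the other ficolin, had 16.7 and 17.4 CPM in R213G and 10.9 and 18.2 in WT.

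For the 5 tested regulators of complement the libraries of the genotypes overlapped. Cr1l, the membrane regulator Crry in mice, had 45.8 and 48.3 CPM in R213G and 38.3 and 46.5 in WT, and Cd59a, which blocks the membrane attack complex, 1.64 and 0.977 CPM in R213G and 1.73 and 1.08 in WT. Clusterin (Clu) had 0 and 132 counts in R213G, against 203 and 67 for WT. Of the terminal components only C8g was tested, with 0 and 16 counts in R213G, against 5 and 20 for WT.

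Of 8 tested genes for opsonin and C1q receptors, 3 had a positive and 5 a negative fold change, with a median of -0.03. Itgb2, the shared chain of complement receptors 3 and 4, had 1895 and 2134 CPM in R213G and 1877 and 2041 CPM in WT (a log2 fold change of 0.04 ± 0.12). Lrp1, an endocytic receptor that binds C1q together with calreticulin, had 2854 and 3549 CPM in R213G and 3442 and 3765 in WT (-0.17 ± 0.13). Per transcript length and over the 4 libraries, Itgb2 averaged 1656 TPM and Lrp1 566 TPM, below each C1q chain.

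**Figure D5:**
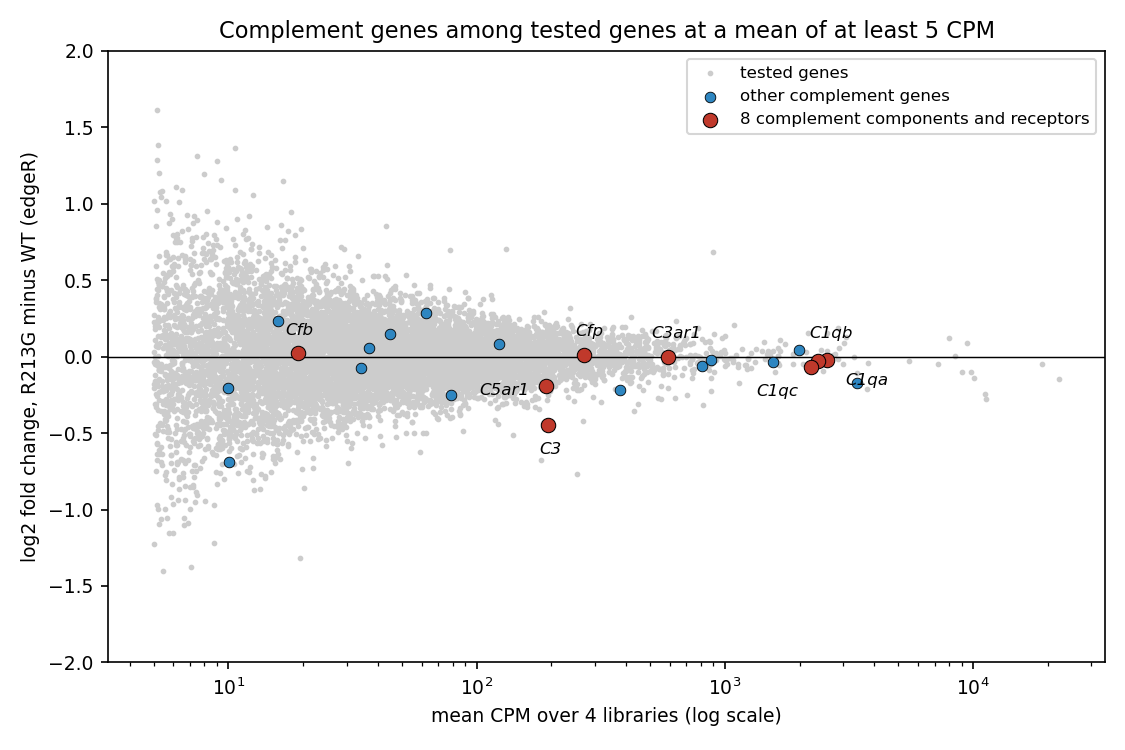
Log2 fold change (R213G minus WT) against mean CPM over 4 libraries (log axis) for 9690 tested genes at a mean of at least 5 CPM (grey), for 15 other complement genes (blue) and for the 8 complement components and receptors (red, named). All members but C3 (-0.45) and C5ar1 (-0.19) lie within 0.07 of 0.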

How the data were processed

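The table the authors deposited holds unnormalized read counts by symbol for 4 libraries of sorted macrophage RNA. STAR 2.5.1b, featureCounts (Subread 1.4.4) and GRCm38 are named in the submitters' processing notes. Annotation, strand setting and multi-mapping treatment are not given in these sources, so genes that overlap on the genome cannot be told apart.

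Of 16360 symbols, 215 were at 0 in all libraries and 13575 passed filterByExpr. Genotypes were compared with edgeR 4.0.16 in R 4.3.3 (TMM, quasi-likelihood test, robust, genotype as the single term), with Benjamini-Hochberg adjustment over all tested genes and a threshold of 0.05. The residual degrees of freedom were 2. Standard errors are the fold change divided by the square root of F, and 95% intervals use the moderated degrees of freedom. With 2 libraries against 2, the smallest exact permutation p is 0.333, so shares and ratios are given without a test. Lengths and positions came from GENCODE release M21 for the 13259 tested genes with a single match, and promoters from RefSeq (GRCm38.p6). No pair of libraries agreed within sampling noise: chi-square per degree of freedom was 17.5 to 57.1 over genes with at least 10 counts. The closest pair was R213G replicate 2 and WT replicate 2 (17.5), and the farthest the 2 R213G libraries (57.1). The WT pair was at 33.2, so the libraries did not group by genotype.

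Named were all 8 members, Sod3, the 2 other complement genes of highest mean CPM in each role, the top marker of each cell type with defining markers at 0, and the genes nearest in profile; 1 gene that this rule names is not reported here. The members and lists were chosen with earlier results of these data known. Alternatives were other scalings, filters and tests (DESeq2 1.42.0, limma 3.58.1), the replicate number as a block, and each library left out.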

Additional observations from a re-analysis of the deposited data

How the results depend on the processing

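With edgeR 0 of 13575 genes passed, against 1 with DESeq2 and 0 to 2 with 1 library left out (2 without R213G replicate 2). Members and other complement genes passed in none of the 12 alternatives. The 302 genes at an unadjusted p under 0.05 became 150 with a mean of at least 5 CPM, 201 with limma voom, and 71 (without WT replicate 1) to 1960 (without R213G replicate 2) with 1 library left out. With a library left out, the log2 fold change ranged from -0.24 to 0.16 for C1qa, -0.13 to 0.063 for C1qb, -0.31 to 0.14 for C1qc, -0.72 to -0.22 for C3, -0.088 to 0.077 for C3ar1, -0.37 to 0.0059 for C5ar1, -0.20 to 0.28 for Cfb and -0.087 to 0.12 for Cfp. C3 kept its sign in all 12 alternatives. For those with a library left out this follows from its genotypes not overlapping. C3ar1, at -0.002 over all libraries, was 0.0011 with a mean of at least 5 CPM. The causes were not tested. The median log2 fold change of all genes shifted by -0.00024 with DESeq2 size factors and by -0.00070 with upper-quartile factors, and by -0.013 to 0.013 with a library left out.

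Over all tested genes, the deviations of same-numbered libraries had a correlation of 0.09, and the labels do not say what a number stands for, so the libraries are treated as sharing a number only. With 2 libraries a genotype this does not settle whether they are paired, and the dendritic, B cell and mast cell markers did split by number in both genotypes. With the replicate block, 0 genes passed and 298 were at an unadjusted p under 0.05, and C3 was at -0.47.

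With 2 libraries a genotype, the spread between libraries limits detection more than depth does: counting gives a relative SD of 0.315% to 0.400% for the C1q chains and 3.70% to 4.30% for Cfb. A setting that leaves 1 library in a genotype assumes that it varies like the other genotype.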

Other observations

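The nearest genes of the count table on each side of the C1q cluster, chosen by position after the data were seen, lay far from it. Ephb2, an ephrin receptor gene 44140 bases away on the lower side, was counted 1 and 0 times in R213G, against 54 and 19 times in WT. Zbtb40, a zinc finger gene 80928 bases away on the upper side, had 20.2 and 22.2 CPM in R213G and 24.3 and 19.2 CPM in WT.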
